A study of Caenorhabditis elegans with 12 samples.

Results

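The 7 fatty acid desaturase genes of Caenorhabditis elegans, fat-1 to fat-7, and 3 genes that control their transcription, sbp-1, nhr-80 and mdt-15, were followed across 12 RNA-seq libraries. These 10 genes were taken by symbol from the 46748 gene identifiers of the count table, and all 10 passed the filter on low counts.

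Desaturases place double bonds in fatty acyl chains, and the worm can make its own polyunsaturated fatty acids because it carries the whole series of them. FAT-5, FAT-6 and FAT-7 introduce the first double bond into saturated acyl chains, FAT-5 acting on palmitic acid and FAT-6 and FAT-7 on stearic acid to give oleic acid. FAT-2 turns oleic acid into linoleic acid, FAT-3 and FAT-4 act in the later steps that lead to arachidonic and eicosapentaenoic acid, and FAT-1 is the omega-3 desaturase. SBP-1 is the worm homologue of the mammalian SREBP transcription factors, NHR-80 is a nuclear hormone receptor needed for normal expression of the FAT-5, FAT-6 and FAT-7 genes, and MDT-15 is a Mediator subunit that acts as a coactivator in lipid gene transcription. Much of this lipid synthesis takes place in the intestine.

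Total RNA came from whole hermaphrodites aged 5 days, and 4 groups of 3 libraries were compared. Animals of strain CF1038, which carries the daf-16(mu86) allele of the FOXO transcription factor gene, were given either the L4440 empty RNAi vector or RNAi against bcat-1, which encodes a branched-chain amino acid aminotransferase. Animals of strain TU3311, which carries a sid-1 transgene for neuronal RNAi, were given either L4440 or RNAi against daf-7, which encodes a TGF-beta ligand. The promoter that drives the transgene is not given in the sources used here. No group carries both daf-16(mu86) and the sid-1 transgene, and the library titles carry different numbers for the 2 strains while their descriptions do not, so allele, transgene and whatever those numbers mark cannot be told apart. The labels do not state that replicates are separate cultures, so the spread behind each p-value may be technical. Libraries are called here by group and replicate, and the replicate number follows the order of the library numbers 1 to 12, so that replicate 1 of the TU3311 groups is libraries 7 and 8.

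Total counts ranged from 30130249 to 45343624 per library, and between 13542 and 16809 genes had at least 10 counts. The mean level of daf-16 was 83.5 CPM (TMM-scaled counts relative to the library total) in daf-16(mu86) on vector and 195.3 CPM in TU3311 on vector (edgeR quasi-likelihood adjusted p = 0.00581). The targets of the RNAi were not lower under their own RNAi. The mean level of bcat-1 was 139.9 CPM on vector and 199.3 CPM under bcat-1 RNAi (adjusted p = 0.212), and that of daf-7 was 8.89 CPM on vector and 94.4 CPM under daf-7 RNAi (adjusted p = 0.0556). Libraries 7 and 8 stood apart from the other TU3311 libraries: the summed level of 12 intestine markers was 63070 and 59430 CPM there, against 24630 to 39910 CPM in the other 4, and the summed level of 16 germline and oocyte markers was 7552 and 7281 CPM, the lowest of the 12 libraries. Whole animals were extracted, so fewer cells of a tissue and less RNA per cell cannot be told apart.

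The 10 genes lie on 3 chromosomes (genome build WBcel235). On chromosome IV, fat-4 (WBGene00001396, IV:9799429-9802226, plus strand) lies 796 bases before fat-3 (WBGene00001395, IV:9803023-9806119, plus strand). A second neighbouring pair on the same chromosome is fat-1 (WBGene00001393, IV:13315644-13318811, plus strand) and fat-2 (WBGene00001394, IV:13323873-13326395, plus strand), 5061 bases apart with no protein-coding gene between them. The stearoyl-CoA desaturase genes are not neighbours, since fat-6 (WBGene00001398) is at IV:11913692-11915687 and fat-7 (WBGene00001399) at V:7151353-7153146, both on the minus strand, and fat-5 (WBGene00001397) is at V:17725004-17726818 on the plus strand. The 3 regulators are on the minus strand of chromosome III, sbp-1 (WBGene00004735) at III:11428367-11442566, nhr-80 (WBGene00003670) at III:11985-14869 and mdt-15 (WBGene00007016) at III:5828557-5833751. Merged exon lengths ran from 1104 bases for fat-5 to 4279 bases for mdt-15. Exons of fat-5 overlap twk-42 on the opposite strand over 28 bases, those of sbp-1 overlap idpc-1 on the opposite strand over 48 bases, and those of mdt-15 overlap R12B2.8 on the opposite strand over 95 bases and R12B2.13 on the same strand over 93 bases. The strand setting of the counting is not given in the sources used here, so it is unknown how reads in the opposite-strand overlaps were assigned, and strand cannot separate mdt-15 from R12B2.13.

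Levels differed more between the genes than between the groups. Counts per library ran from 161 to 687 for nhr-80 and from 195 to 2099 for fat-7, and reached 88728 for fat-2, so counting error was small for every gene. On the scale of CPM per kilobase of merged exons, fat-2 was the highest of the 10 in every group, with group means of 828 ± 67.4 (SD, n = 3) in daf-16(mu86) on vector, 1025 ± 129 under bcat-1 RNAi, 1281 ± 287 in TU3311 on vector and 1092 ± 426 under daf-7 RNAi. The omega-3 desaturase gene fat-1 was next in every group, at 474 to 554 CPM per kilobase. In daf-16(mu86) on vector the order below these was fat-6 (274), fat-4 (227), fat-3 (104.4), fat-5 (63.2), mdt-15 (45.9), sbp-1 (15.1), fat-7 (11.0) and nhr-80 (3.61), and no neighbours in that order overlapped in their 3 libraries. Under bcat-1 RNAi the neighbours fat-6 and fat-4, fat-5 and mdt-15, and fat-7 and nhr-80 overlapped.

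In TU3311 fat-5 and fat-7 had other places in the order. In TU3311 on vector, fat-5 stood above fat-3 at a mean of 203 CPM per kilobase against 123, and fat-7 stood above sbp-1 at 24.6 against 17.2, but in both pairs the libraries overlapped, as did those of fat-4 and fat-5 and those of mdt-15 and fat-7. The means of fat-1 and fat-6 lay within 1.04-fold of each other there (478 ± 131 and 460 ± 146 CPM per kilobase) and their libraries overlapped. The same order and the same overlapping neighbours held in TU3311 under daf-7 RNAi.

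**Figure D1:**
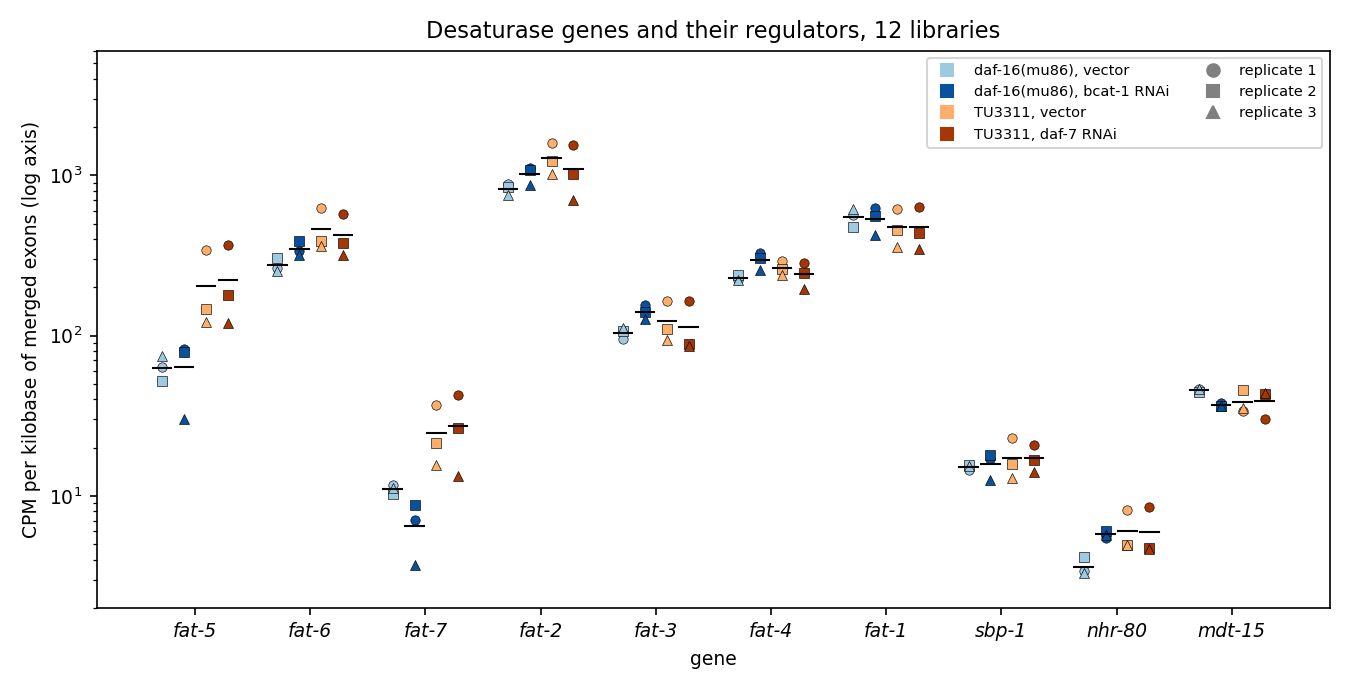
Level of each of the 10 genes in CPM per kilobase of merged exons (log axis) in the 12 libraries, coloured by group and shaped by replicate, with group means as black bars. By group mean fat-2 is highest and nhr-80 lowest in every group. The circles of both TU3311 groups (libraries 7 and 8) are the highest of their group for every gene except mdt-15, where they are the lowest.

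The first comparison asked how the genes differed under bcat-1 RNAi in daf-16(mu86). The polyunsaturated branch genes fat-2, fat-3 and fat-4 and the stearoyl-CoA desaturase gene fat-6 had higher means under bcat-1 RNAi, by 1.24- to 1.35-fold, nhr-80 was 1.59-fold higher, mdt-15 was 1.24-fold lower and fat-7 was 1.70-fold lower. None of the 10 genes passed the test over all 12 libraries (edgeR quasi-likelihood test, adjusted p under 0.05), where 4.32% of the 16618 genes tested did (4.18% higher and 0.144% lower). Of the 10, 1 (nhr-80) had an unadjusted p under 0.05, against 21.7% of all genes, and DESeq2 called 0, against 4.99%. Neighbouring library numbers were then paired, a pairing taken from these data and not from the labels. With it 5 of the 10 rose (fat-2, fat-3, fat-4, fat-6 and nhr-80) and 2 fell (fat-7 and mdt-15). Of all genes tested, 25.7% were called higher and 18.5% lower with this pairing. The calls on these 7 genes thus depend on the pairing or on the libraries that share the estimate of the spread, and their direction was the same in all 21 alternatives tried.

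Among the genes for the first double bond, fat-6 and fat-7 went opposite ways. The level of fat-6 was 308, 356 and 297 CPM on vector (replicates 1, 2 and 3) and 392, 452 and 374 CPM under bcat-1 RNAi. All 3 RNAi libraries were above all 3 vector libraries, by 0.35, 0.35 and 0.33 on the log2 scale in the 3 neighbouring pairs, which is the most even step of the 10 genes. The log2 change was 0.34 ± 0.27 (SE, adjusted p = 0.444) over all libraries and 0.34 ± 0.08 (adjusted p = 0.00828) with pairing.

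The level of fat-7, the other stearoyl-CoA desaturase gene, was 13.2, 11.5 and 12.6 CPM on vector and 7.94, 9.84 and 4.19 CPM under bcat-1 RNAi. All 3 RNAi libraries were below all 3 vector libraries, with replicate 3 the lowest of the 12 libraries, and the steps in the pairs were uneven (-0.73, -0.23 and -1.57). The log2 change was -0.76 ± 0.42 (adjusted p = 0.303) over all libraries and -0.83 ± 0.22 (adjusted p = 0.0150) with pairing. With the 6 daf-16(mu86) libraries alone and no pairing it was -0.72 ± 0.28 (adjusted p = 0.0648).

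The palmitoyl-CoA desaturase gene fat-5 showed no direction. Its level was 69.9, 57.3 and 82.0 CPM on vector and 91.1, 86.7 and 33.3 CPM under bcat-1 RNAi, so that replicates 1 and 2 were above and replicate 3 below every vector library. The log2 change was 0.01 ± 0.47 (adjusted p = 0.989), and it was 0.34 without replicate 3 of bcat-1 RNAi and -0.09 with pairing. Replicate 3 of bcat-1 RNAi held the lowest levels of fat-5, fat-7 and sbp-1 of all 12 libraries.

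In the polyunsaturated branch, fat-3 and fat-4 had similar values in the pairs. The level of fat-3 was 141.6, 159.4 and 166.1 CPM on vector and 233, 209 and 188 CPM under bcat-1 RNAi, and that of fat-4 was 342, 368 and 340 CPM on vector and 508, 472 and 393 CPM under bcat-1 RNAi. For both genes every RNAi library was above every vector library, and the step was widest in pair 1 (0.72 for fat-3 and 0.57 for fat-4) and narrowest in pair 3 (0.18 and 0.21). The log2 change of fat-3 was 0.43 ± 0.28 (adjusted p = 0.374) over all libraries and 0.43 ± 0.11 (adjusted p = 0.0131) with pairing. For fat-4 it was 0.39 ± 0.20 (adjusted p = 0.285) and 0.38 ± 0.10 (adjusted p = 0.0120).

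The neighbouring genes fat-2 and fat-1 did not do the same. The level of fat-2 was 1112, 1058 and 946 CPM on vector and 1394, 1365 and 1099 CPM under bcat-1 RNAi, with replicate 3 of the RNAi group inside the vector range. Its log2 change was 0.31 ± 0.27 (adjusted p = 0.498) over all libraries and 0.30 ± 0.11 (adjusted p = 0.0388) with pairing. The level of fat-1 was 807, 673 and 872 CPM on vector and 886, 791 and 604 CPM under bcat-1 RNAi, groups that overlapped throughout, with a log2 change of -0.04 ± 0.27 (adjusted p = 0.928) and no call with pairing (adjusted p = 0.759).

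Of the regulators, nhr-80 had the largest change of the 10 genes in the upward direction. Its level was 6.19, 7.59 and 6.08 CPM on vector and 10.1, 11.1 and 10.4 CPM under bcat-1 RNAi. The groups did not overlap and the RNAi libraries lay close together (SD 0.543 CPM). The log2 change was 0.67 ± 0.29 (adjusted p = 0.204) over all libraries and 0.67 ± 0.12 (adjusted p = 0.00292) with pairing.

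The Mediator subunit gene mdt-15 had a lower mean, with the tightest groups of the 10 genes. Its level was 199.9, 189.8 and 200 CPM on vector and 162, 157 and 157 CPM under bcat-1 RNAi. Every RNAi library was below every vector library, and the steps in the 3 pairs were alike (-0.30, -0.28 and -0.35). The log2 change was -0.31 ± 0.21 (adjusted p = 0.383) over all libraries and -0.31 ± 0.10 (adjusted p = 0.0324) with pairing.

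The SREBP homologue gene sbp-1 was 48.97, 53.2 and 51.8 CPM on vector and 57.7, 61.0 and 42.7 CPM under bcat-1 RNAi. Replicates 1 and 2 were above the vector libraries and replicate 3 below them. The log2 change was 0.07 ± 0.25 (adjusted p = 0.873), with no call under pairing (adjusted p = 0.735).

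Counting libraries instead of testing, 4 of the 10 genes (fat-3, fat-4, fat-6 and nhr-80) had all RNAi libraries above all vector libraries, against 29.5% of all genes tested, and 2 (fat-7 and mdt-15) had them all below, against 25.1%. These shares are close to those of the whole table. The median log2 change of the 10 genes was 0.19 and that of all genes 0.16, and the latter was -0.04 with RLE factors and 0.36 with library totals. Relative to the all-gene median, nhr-80 was at 0.51, fat-3 at 0.27, fat-4 at 0.23, fat-6 at 0.18, fat-2 at 0.15, mdt-15 at -0.47 and fat-7 at -0.93. Without libraries 7 and 8, neither of which belongs to this comparison, 4 genes were called higher (fat-3, fat-4, fat-6 and nhr-80) and 1 lower (mdt-15), against 20.9% of all genes higher and 14.8% lower. With only the 6 daf-16(mu86) libraries, 5 were called higher and 1 lower (mdt-15), against 24% and 16.5% of all genes. Libraries 7 and 8 share the scaling and the estimate of the spread with this comparison.

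Tissue markers also differed between these groups. The summed level of the 16 germline and oocyte markers was 14220 to 16730 CPM on vector and 8861 to 11100 CPM under bcat-1 RNAi, with all 16 lower in the fit, none of them called over all libraries and 14 called lower with pairing, where 18.5% of all genes were. The 12 neuron markers summed to 370 to 405 CPM on vector and 447 to 466 CPM under RNAi. The 12 intestine markers, all detected in every library, summed to 24860 to 29020 CPM and 26070 to 33290 CPM, which overlap. Most of that sum was vit-2 and vit-6, at mean levels of 8159 and 17010 CPM on vector. With each marker weighted alike (mean log2 level, centred on the mean of each gene), the intestine markers did not overlap. They were at -0.20 to -0.13 on vector and -0.11 to 0.01 under RNAi. Embryo markers (11 genes) summed to 301 to 366 CPM and 485 to 563 CPM. Among them dpy-14 went from a mean of 72.1 to 281 CPM and pal-1 from 218 to 175 CPM. Sperm markers (12 genes) summed to 7.00 to 12.1 CPM and 12.3 to 22.8 CPM. Hypodermis markers (10 genes) summed to 162 to 172 CPM and 183 to 277 CPM, with sqt-3 going from 26.3 to 91.1 CPM and nhr-23 from 102.8 to 70.9 CPM. Muscle markers (11 genes) summed to 700.0 to 814 CPM and 631 to 1084 CPM. Weighted alike, embryo markers did not overlap (-0.43 to -0.02 and 0.14 to 0.47). Sperm markers (-1.74 to -0.56 and -1.84 to 0.77) and hypodermis markers (-0.997 to -0.245 and -0.54 to 1.58) did overlap. The markers called higher over all libraries were unc-10 (neuron), dpy-14 (embryo) and sqt-3 (hypodermis), and none was called lower. The part of these tissue differences in the levels of the 10 genes was not tested.

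**Figure D2:**
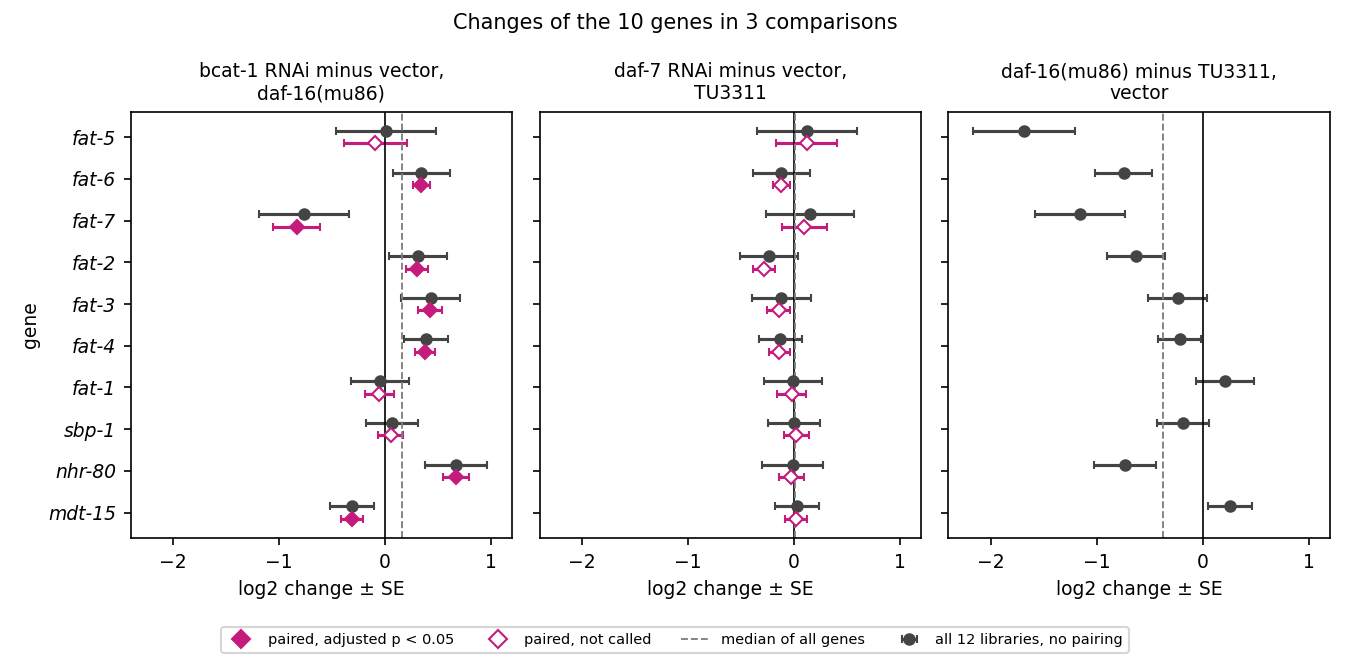
Log2 change ± SE of the 10 genes in the 3 comparisons, over all 12 libraries (grey circles) and with neighbouring library numbers paired (diamonds, filled where adjusted p was under 0.05), with the median change of all genes tested as a dashed line. In the first panel 7 diamonds are filled and fat-7 lies farthest left, in the second none is filled, and in the third, which has no pairs, fat-5 lies farthest left at -1.69.

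The second comparison asked how the genes differed under daf-7 RNAi in TU3311. No desaturase or regulator gene differed beyond the spread between libraries. The log2 changes of the 10 genes lay between -0.23 (fat-2) and 0.16 (fat-7), and every adjusted p was 1 in the edgeR quasi-likelihood test. For no gene were the 3 RNAi libraries all above or all below the 3 vector libraries. For fat-3 and nhr-80 the RNAi libraries lay outside the vector range, but on both sides of it. The whole table gave the same picture, with 0% of genes called, 77 genes (0.463%) at an unadjusted p under 0.05 and 3 genes called by DESeq2. Non-overlapping groups were found for 0.650% of all genes in the upward and 0.644% in the downward direction.

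The spread inside the TU3311 groups was widest for fat-5 and fat-7. The level of fat-5 was 376, 163 and 134 CPM on vector and 405, 198 and 132 CPM under daf-7 RNAi, and that of fat-7 was 41.6, 23.9 and 17.6 CPM and 47.9, 29.8 and 15 CPM. In both groups replicate 1 was highest and replicate 3 lowest, so the neighbouring libraries matched each other far more closely than the replicates did. The pairwise steps of fat-6 were -0.12, -0.05 and -0.18 on the log2 scale, those of nhr-80 were 0.06, -0.05 and -0.08, and those of fat-2 were -0.04, -0.27 and -0.54. With pairing, too, none of the 10 genes was called, and 1 gene (0.00602%) was called in the whole table.

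Libraries 7 and 8 set the upper end of nearly all of these ranges. They held the highest level of their group for 9 of the 10 genes, and the lowest for mdt-15 (146 and 129 CPM, against 152 to 196 CPM in the other 4 TU3311 libraries). Without them the log2 changes under daf-7 RNAi rested on 2 libraries a group, and no gene of the 10 was called, where 0.00605% of all genes were.

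The third comparison set daf-16(mu86) against TU3311, both on vector. The genes for the first double bond had lower means in daf-16(mu86), fat-5 by 3.22-fold, fat-7 by 2.23-fold and fat-6 by 1.68-fold, and nhr-80 and fat-2 were lower by 1.67- and 1.55-fold. None of the 10 passed the test over all libraries, where 6.64% of all genes did (22 higher, 0.132%, and 1081 lower, 6.5%). At an unadjusted p under 0.05 there were 5 of the 10, near the 44.1% of all genes. DESeq2, with its own scaling, called 3201 genes higher (19.3%) and 1676 lower (10.1%), and of the 10 genes called fat-5 alone (-1.45 ± 0.45, adjusted p = 0.0208). For 5 of the 10 (fat-2, fat-5, fat-6, fat-7 and nhr-80) every daf-16(mu86) library was below every TU3311 library, against 30.7% of all genes, and for none was it above, against 25.8%. This comparison shares its vector libraries with the other comparisons and is not independent of them.

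The widest difference was that of fat-5, at 69.9, 57.3 and 82.0 CPM in daf-16(mu86) and 376, 163 and 134 CPM in TU3311. Every TU3311 library was above every daf-16(mu86) library, and replicate 1 was more than the other TU3311 vector libraries together. The log2 difference was -1.69 ± 0.48 (adjusted p = 0.0523), and it was -1.09 ± 0.41 (adjusted p = 0.0786) without libraries 7 and 8. For fat-7 the values were 13.2, 11.5 and 12.6 CPM against 41.6, 23.9 and 17.6 CPM, with no overlap and a log2 difference of -1.16 ± 0.42 (adjusted p = 0.0806), or -0.74 ± 0.36 (adjusted p = 0.129) without those libraries.

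The level of fat-6 was 308, 356 and 297 CPM in daf-16(mu86) and 733, 457 and 420 CPM in TU3311, and that of nhr-80 was 6.19, 7.59 and 6.08 CPM against 15.1, 9.03 and 9.00 CPM. Replicate 1 of TU3311 was far above the other 2 for both genes, which lay close together. The log2 difference of fat-6 was -0.75 ± 0.27 (adjusted p = 0.0795) and had a smaller size and a smaller SE without libraries 7 and 8, at -0.45 ± 0.12 (adjusted p = 0.0225). That of nhr-80 went from -0.74 ± 0.29 (adjusted p = 0.0894) to -0.44 ± 0.15 (adjusted p = 0.0480). These 2 genes were the only ones of the 10 called lower without those libraries, where 15.7% of all genes were called lower and 15.8% higher.

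For fat-2 the levels were 1112, 1058 and 946 CPM in daf-16(mu86) and 1996, 1544 and 1283 CPM in TU3311, a log2 difference of -0.63 ± 0.27 (adjusted p = 0.102). The remaining genes overlapped between the strains: fat-3 differed by -0.24, fat-4 by -0.22, sbp-1 by -0.19, fat-1 by 0.21 and mdt-15 by 0.26 on the log2 scale. The sign of fat-3 and sbp-1 turned without libraries 7 and 8 (0.04 and 0.08), and that of fat-1 and mdt-15 turned with upper-quartile factors (-0.13 and -0.04). The median over all genes was -0.38, and -0.71 with upper-quartile factors and -0.17 with RLE factors. Against the median of -0.38, fat-5 stood at -1.31, fat-7 at -0.78, fat-6 at -0.37, nhr-80 at -0.36, fat-2 at -0.25, fat-1 at 0.59 and mdt-15 at 0.64.

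The calls in this comparison also depended on a library outside it. Without replicate 1 of the daf-7 RNAi group (library 8), 5 genes were called lower, namely fat-2 (adjusted p = 0.0383), fat-5 (0.0258), fat-6 (0.0303), fat-7 (0.0345) and nhr-80 (0.0373), with log2 differences of -1.68 for fat-5 and -0.62 for fat-2, close to those above. In that fit 22.3% of all genes were lower and 14.1% higher, so the count rose with that of the whole table. With only the 6 vector libraries fat-5 alone was called (-1.70 ± 0.37, adjusted p = 0.0360), where 3.32% of all genes were lower and 0.0907% higher. Without replicate 2 of TU3311 on vector, fat-5 alone was called (-1.84, adjusted p = 0.0468), where 7.23% of all genes were lower and 0.241% higher. Germline and oocyte markers summed to 14220 to 16730 CPM in daf-16(mu86) and 7552 to 11260 CPM in TU3311, muscle markers to 700.0 to 814 CPM and 1254 to 2262 CPM, sperm markers to 7.00 to 12.1 CPM and 16 to 43.7 CPM, neuron markers to 370 to 405 CPM and 417 to 548 CPM, and intestine markers overlapped (24860 to 29020 CPM and 24630 to 63070 CPM). The part of these marker differences in the strain difference was not tested.

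The fourth comparison asked whether the response to bcat-1 RNAi in daf-16(mu86) differed from that to daf-7 RNAi in TU3311. The responses of nhr-80, fat-2, fat-3, fat-4 and fat-6 were more positive under bcat-1 RNAi, with differences of 0.46 to 0.68 on the log2 scale, and that of fat-7 was more negative, by -0.92 ± 0.59. None of the 10 was called over all libraries, where 0.108% of all genes were (0.102% higher and 0.00602% lower), and 0 of the 10 had an unadjusted p under 0.05, against 12.3% of all genes. With pairing, 5 were called higher: nhr-80 at 0.70 ± 0.17 (adjusted p = 0.0193), fat-2 at 0.58 ± 0.15 (adjusted p = 0.0213), fat-3 at 0.57 ± 0.16 (adjusted p = 0.0275), fat-4 at 0.52 ± 0.14 (adjusted p = 0.0246) and fat-6 at 0.46 ± 0.11 (adjusted p = 0.0192). The paired difference of fat-7 was -0.93 ± 0.31 (adjusted p = 0.0486). Of all genes, 15% were called higher and 11.2% lower with pairing. Without libraries 7 and 8, fat-3 (0.69, adjusted p = 0.0282) and nhr-80 (0.77, adjusted p = 0.0425) were called higher, where 7.65% of all genes were, and none of the 10 was called lower, where 5.59% were.

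The makeup of the desaturase transcript pool was described as each gene's share of the summed CPM per kilobase of the 7 desaturase genes. That sum was 2031 to 2112 CPM per kilobase in daf-16(mu86) on vector, 2038 to 2648 under bcat-1 RNAi, 2211 to 3672 in TU3311 on vector and 1781 to 3624 under daf-7 RNAi. The share of fat-2 was between 36.9% and 47.0% in every library. The share of fat-7 was 0.535% ± 0.028 (SD, n = 3) in daf-16(mu86) on vector, 0.263% ± 0.079 under bcat-1 RNAi, 0.842% ± 0.152 in TU3311 on vector and 1.01% ± 0.23 under daf-7 RNAi, so that fat-7 was a minor transcript throughout and the bcat-1 RNAi libraries did not overlap with the others. The share of fat-5 was 1.48% to 3.64% in daf-16(mu86) and 5.51% to 10.1% in TU3311, with no overlap between the strains.

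Ratios between pairs of desaturase genes do not depend on the scaling of the libraries. The level of fat-7 per kilobase was 4.44%, 3.35% and 4.38% of that of fat-6 in daf-16(mu86) on vector and 2.10%, 2.25% and 1.16% under bcat-1 RNAi. In TU3311 it was 5.89%, 5.42% and 4.34% on vector and 7.36%, 7.00% and 4.20% under daf-7 RNAi. The bcat-1 RNAi libraries were the lowest 3 of the 12, and the other groups overlapped with each other. The log2 ratio differed by -1.19 under bcat-1 RNAi (two-sided exact permutation test, p = 0.1, the smallest p that 3 against 3 libraries allow), by 0.21 under daf-7 RNAi (exact p = 0.6) and by -0.36 between the strains on vector (exact p = 0.3). The responses differed from each other by -1.41, and by -1.35 without libraries 7 and 8. Shuffling RNAi and vector labels within strains gave an exact permutation p = 0.03 (adjusted over 4 ratios p = 0.06). That p is for no effect of either RNAi, so it cannot tell whether the responses differ from each other. It also does not use the pairing of neighbouring libraries.

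The ratio of fat-1 to fat-2, the chromosome IV neighbours, did not overlap between RNAi and vector libraries in either strain. It did overlap between the RNAi groups of the 2 strains. It was 64.3%, 56.4% and 81.7% in daf-16(mu86) on vector and 56.3%, 51.4% and 48.8% under bcat-1 RNAi. In TU3311 it was 38.8%, 37.2% and 35.0% on vector and 41.2%, 42.9% and 49.1% under daf-7 RNAi. The bcat-1 RNAi libraries lay below their vector libraries, though the nearest values, 56.3% and 56.4%, all but met, and the daf-7 RNAi libraries lay above theirs. The log2 ratio differed by -0.36, by 0.26 and, between the strains on vector, by 0.85. The difference between the responses was -0.62, and it was between -0.74 and -0.47 when each library was left out.

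For the other ratios the RNAi and vector groups overlapped in both strains. The level of fat-3 was 42.8% to 50.4% of that of fat-4 in daf-16(mu86) on vector, 45.7% to 49.4% under bcat-1 RNAi, 39.3% to 56.2% in TU3311 on vector and 36.2% to 57.9% under daf-7 RNAi, with group means within 0.07 of each other on the log2 scale. The level of fat-5 was 17.0% to 29.2%, 9.40% to 24.5%, 33.8% to 54.2% and 37.6% to 63.5% of that of fat-6 in the same order of groups, so the strains did not overlap. Their responses differed by 0.06 for fat-3 over fat-4 and by -0.69 for fat-5 over fat-6. The ratios other than fat-7 over fat-6 were chosen after their values were seen and are given as a description. The exact test was run on them too and entered the adjustment over 4 ratios, but their p-values are left out for that reason.

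**Figure D3:**
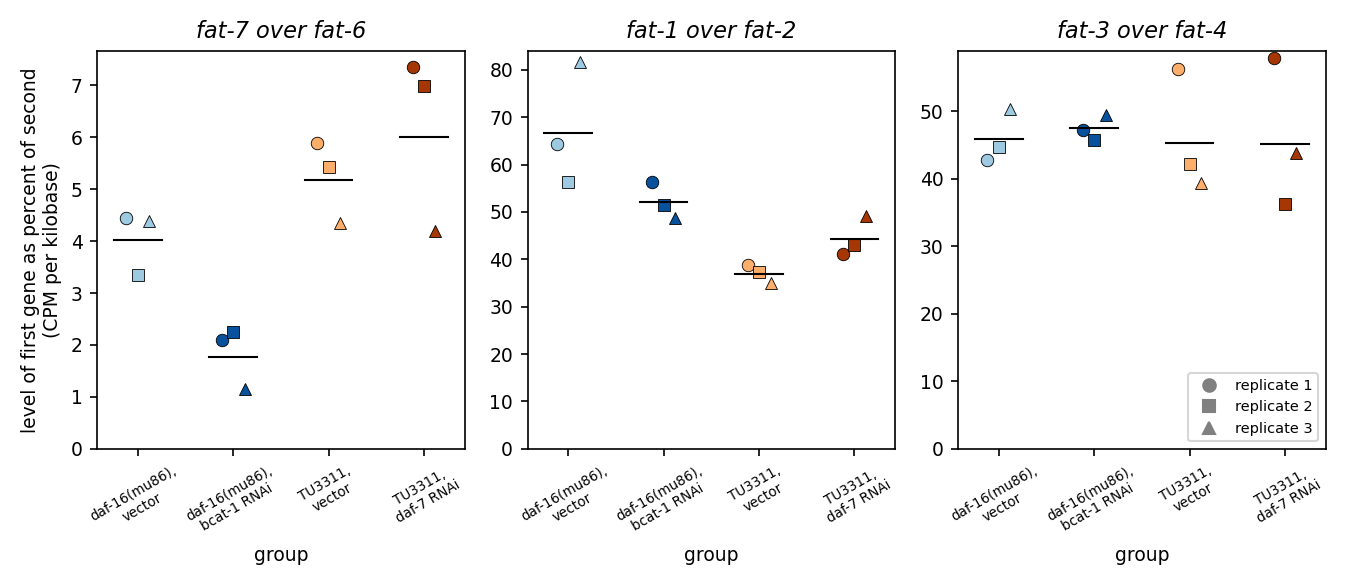
Level per kilobase of fat-7 as percent of fat-6, of fat-1 as percent of fat-2 and of fat-3 as percent of fat-4, in the 12 libraries by group, with group means as bars and axes that start at 0. The fat-7 share is lowest under bcat-1 RNAi, the fat-1 share is highest in daf-16(mu86) on vector and lowest in TU3311 on vector, and the fat-3 share is alike in all groups.

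Across the 12 libraries the 10 genes varied to very different degrees. The SD of log2 CPM was 1.06 for fat-5 and 1.01 for fat-7, 0.42 for nhr-80 and 0.40 for fat-6, and between 0.21 and 0.37 for the other 6, of which mdt-15 was the least variable. Both fat-5 and fat-7 were highest in replicate 1 of daf-7 RNAi and lowest in replicate 3 of bcat-1 RNAi, over a range of 3.60 and 3.50 on the log2 scale. After centring each gene on its own mean, the closest pairs were fat-6 with nhr-80 (root mean square difference 0.154 on the log2 scale over 12 libraries), fat-2 with fat-6 (0.158) and fat-3 with its neighbour fat-4 (0.188). The pair fat-5 and fat-7 was each other's nearest among the 10 (0.326), and mdt-15 had no near member, its closest being fat-4 (0.369). Libraries 7 and 8 weigh on all of these distances.

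**Figure D4:**
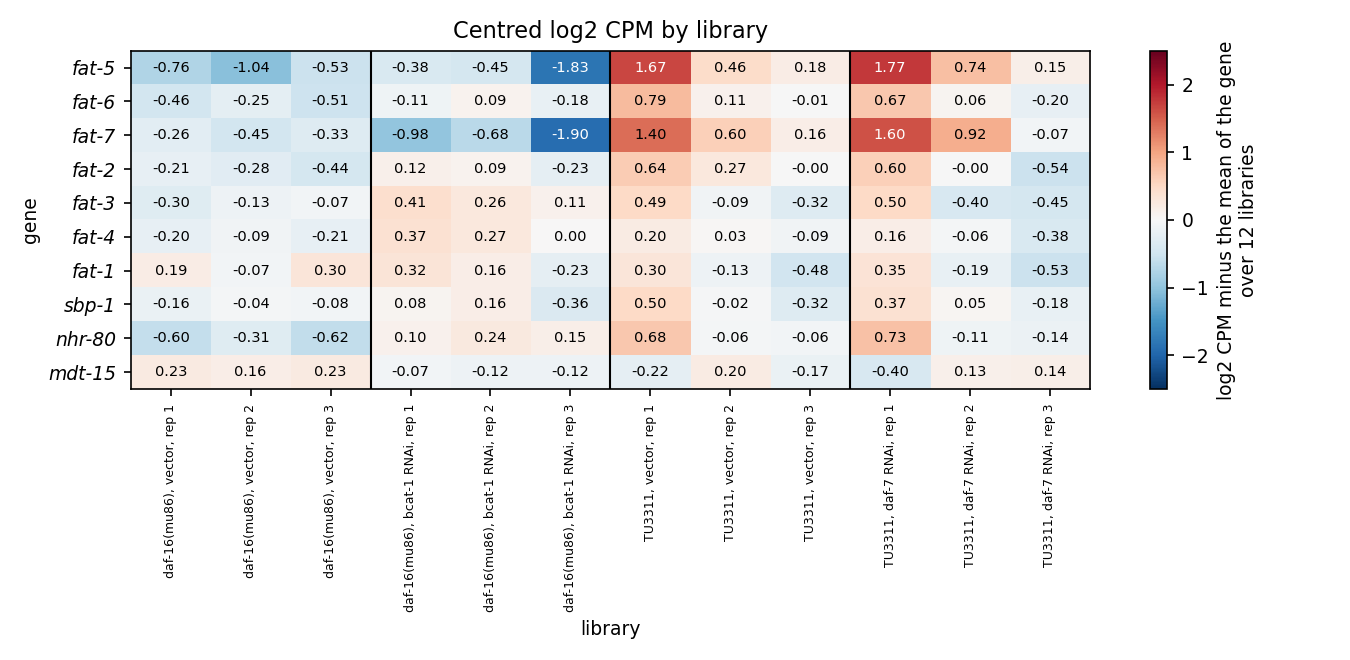
Log2 CPM of each gene minus its mean over the 12 libraries, by gene and library, with vertical lines between the groups. The fat-5 and fat-7 rows hold the extremes, from -1.90 (fat-7) in replicate 3 of bcat-1 RNAi to 1.77 (fat-5) in replicate 1 of daf-7 RNAi, the nhr-80 row is lowest in daf-16(mu86) on vector, and the mdt-15 row stays between -0.40 and 0.23.

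Among 7900 other genes with a mean of at least 10 CPM, the patterns closest to those of the 10 genes were named by the same distance. The closest to fat-6 were WBGene00014294, annotated as a pseudogene, at 0.085 and slcr-46.3 at 0.087, and the closest to fat-4 were nhr-64, a nuclear hormone receptor gene, at 0.097 and ZK154.4 at 0.106. The closest to mdt-15 were kin-19, a casein kinase gene, at 0.040 and ego-2 at 0.050. For each of the 10 genes the closest of these patterns was nearer than that of any other of the 10. That was likely beforehand, since 7900 candidates were searched against 9. For sbp-1 they were fard-1, a fatty acyl-CoA reductase gene, at 0.097 and Y54F10AM.8 at 0.104, and for nhr-80 they were F56H9.2 at 0.092 and hex-2 at 0.103. F44A2.3 was the nearest to both fat-5 (0.274) and fat-7 (0.302), followed by F15B9.6 (0.311) and C23H5.8 (0.307). The nearest to fat-3 were mab-31 (0.104) and W07G4.5 (0.112), to fat-2 F21A3.11 (0.127) and cest-2.1 (0.128), and to fat-1 Y32F6A.4 and H06H21.8 (both 0.184).

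The genes around the desaturases in lipid metabolism were read from 5 lists. Under bcat-1 RNAi over all libraries, 0 of 14 genes of fatty acid synthesis and elongation were called and 0 of 4 electron donors of desaturation. Of the other regulators of desaturase genes 0 of 18 were called, and of phospholipid and neutral lipid synthesis 0 of 20. The fifth list, called here the nhr-49 list, gave 2 of 15. It holds genes regulated with the nuclear hormone receptor gene nhr-49, mostly but not all of fatty acid oxidation. At an unadjusted p under 0.05 the counts were 3, 1, 3, 4 and 5 in that order, where 21.7% of all genes were under it. The 2 that rose were acdh-2, an acyl-CoA dehydrogenase gene, by 1.84 ± 0.41 on the log2 scale (adjusted p = 0.0261, from a mean of 0.378 to 1.35 CPM), and fmo-2, a flavin-containing monooxygenase gene, by 2.35 ± 0.62 (adjusted p = 0.0482, from 9.70 to 49.4 CPM). The smallest p in the other lists belonged to elo-5, an elongase of branched-chain fatty acids (0.81 ± 0.25, adjusted p = 0.0822), cytb-5.1, a cytochrome b5 gene (0.67 ± 0.20, adjusted p = 0.0796), the transcription factor gene pqm-1 (0.66 ± 0.28, adjusted p = 0.187) and the acyltransferase gene acl-7 (0.63 ± 0.20, adjusted p = 0.0951). None of these 4 passed.

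With pairing the calls under bcat-1 RNAi were 5 higher and 1 lower in synthesis and elongation and 2 and 1 among the electron donors. They were 2 and 9 among the other regulators, 3 and 7 in phospholipid and neutral lipid synthesis, and 5 and 5 in the nhr-49 list. Of all genes, 25.7% were called higher and 18.5% lower with pairing. The median log2 changes over all libraries were 0.34, 0.06, -0.27, -0.03 and -0.12 in that order, beside 0.16 for all genes. The paired adjusted p was 0.00125 for elo-5, 0.00369 for cytb-5.1, 0.00111 for pqm-1 and 0.00415 for acl-7.

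Between the strains on vector, 7 genes of these lists were called lower in daf-16(mu86) and none higher, where 6.5% of all genes were lower and 0.132% higher. They were 1 of 14 in synthesis and elongation (elo-8, -1.36 ± 0.36, adjusted p = 0.0413) and 1 of 18 other regulators (daf-16 itself). A further 2 of 20 were in phospholipid synthesis and 3 of 15 in the nhr-49 list. Of the electron donors 0 of 4 were called, and cytb-5.1 came nearest (-0.62 ± 0.20, adjusted p = 0.0700). The phospholipid genes were pmt-1 (-0.91 ± 0.22, adjusted p = 0.0367) and pmt-2 (-0.84 ± 0.22, adjusted p = 0.0410), which encode the phosphoethanolamine methyltransferases of phosphatidylcholine synthesis. Those of the nhr-49 list were lbp-8, a lysosomal lipid chaperone gene (-2.94 ± 0.47, adjusted p = 0.00645), acdh-2 (-1.85 ± 0.41, adjusted p = 0.0276) and ech-9, an enoyl-CoA hydratase family gene (-1.96 ± 0.44, adjusted p = 0.0282). All 7 were also called without libraries 7 and 8, where 15.7% of all genes were lower.

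Under daf-7 RNAi no gene of the 5 lists was called and every adjusted p was 1, the smallest p in each list belonging to elo-9, cytb-5.2, nhr-64, pmt-2 and acdh-1. None was called in the difference between the responses over all libraries either, where the smallest p in each list belonged to elo-5 (0.68, adjusted p = 0.448), cytb-5.1 (0.74, adjusted p = 0.314), pqm-1 (0.76, adjusted p = 0.447), pmt-1 (0.71, adjusted p = 0.378) and fmo-2 (3.13, adjusted p = 0.152). With pairing the adjusted p of these was 0.0184, 0.0180, 0.00727, 0.0171 and 0.00292.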

How the data were processed

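The labels' protocols name the TruSeq RNA Library Preparation Kit v2. Reads were processed with bcl2fastq 1.8.4, STAR 2.4.1d and featureCounts 1.4.6-p4 on WBcel235, per the submitters' processing notes. The strand setting and the handling of multimapping reads are not given in the sources used here. The deposited counts per gene, whole numbers, were used for every test. The authors' deposited RPKM values, which did not follow the counts by 1 factor per library (SD 0.221 on the log2 scale over 8923 genes), were used only for that check.

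Counts were filtered by group (filterByExpr) and TMM-scaled, and all 4 groups were fitted in 1 model with edgeR 4.0.16 (R 4.3.3, robust quasi-likelihood F test, two-sided, 8 residual degrees of freedom). P-values were adjusted by Benjamini-Hochberg over the 16618 genes tested, and genes under 0.05 were called. SE is the log2 change divided by the square root of F. Centred patterns use log2 CPM with a prior count of 2. All 10 genes matched the annotation by identifier. The same steps were checked on simulated counts, with changes larger than those of the 10 genes and the same spread for every gene. The simulation had no outlying libraries and no pairs, so it cannot show how the steps perform on the smaller changes here.

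Replicate numbers follow library numbers, and the labels do not say that neighbours share a culture or day. Deviations of neighbouring libraries from their group means correlated at 0.398, 0.284 and 0.158 in daf-16(mu86) and at 0.892, 0.777 and 0.504 in TU3311, and each library correlated best with its own neighbour, so paired values are given beside the unpaired ones; the pairing comes from these values, not from the labels.

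The genes named are the 10 genes, the RNAi targets and daf-16, list genes past the test (otherwise the one of smallest p) and the 2 closest patterns per gene. The 10 genes and the lists were chosen with earlier results of these data known. The alternatives tried were RLE, upper-quartile and unscaled library totals, no filter, DESeq2 1.42.0, the replicate block, only the 6 libraries of a comparison, no libraries 7 and 8, and leaving out each library.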

Additional observations from a re-analysis of the deposited data

Results flagged for a closer look

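The difference between the responses to bcat-1 RNAi in daf-16(mu86) and daf-7 RNAi in TU3311 in the log2 ratio of fat-1 to fat-2 was -0.62. Every bcat-1 RNAi library was below its vector group, though the nearest values, 56.3% and 56.4%, all but met. Every daf-7 RNAi library was above its own vector group. This ratio was chosen after its values were seen, so no p is given, and the difference was not tested on values independent of that choice. Strain and RNAi target differ together between the 2 responses, so they cannot be told apart. Without libraries 7 and 8 the difference was -0.70.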

How the results depend on the processing

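For bcat-1 RNAi against vector the count of genes called, 718 over all libraries, was 330 with RLE factors, 1150 with library totals, 7356 with the replicate block, 6116 with only the 6 libraries, 6407 with both and 5896 without libraries 7 and 8. Of the 10 genes, 0 were called, and 7 with the block, 6 with only the 6 libraries, 7 with both and 5 without libraries 7 and 8. For the strains the count of 1103 was 256 with RLE factors, 1897 with upper-quartile factors, 2883 with library totals, 4877 by DESeq2, 526 with only the 6 libraries and 5194 without libraries 7 and 8. The 10 genes gave 0 calls, and 1, 2, 1, 1 and 2 with upper-quartile factors, library totals, DESeq2, only the 6 libraries and without libraries 7 and 8. For daf-7 RNAi the count of 0 was 1 with RLE factors, without the filter, with the block and without libraries 7 and 8, and 3 by DESeq2. For the difference between the responses the count of 18 was 2 with upper-quartile factors, 40 without the filter, 129 by DESeq2, 4349 with the block and 2187 without libraries 7 and 8, and the 10 genes gave 6 calls with the block and 2 without those libraries. The block changed no other call among the 10 genes. The fit with both the block and only 6 libraries was chosen after seeing the data, and the block and the fit without libraries 7 and 8 were listed with earlier results of these data known. The cause of these shifts was not tested.

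Signs turned for some genes, and between the strains those genes were not near 0 over all libraries. There mdt-15 was at 0.26, fat-3 at -0.24, fat-1 at 0.21 and sbp-1 at -0.19. Under bcat-1 RNAi fat-1 was 0.10 with upper-quartile factors and 0.16 with library totals, fat-5 was -0.19 with RLE factors and by DESeq2, -0.045 without the filter, -0.089 with the block and -0.047 with the block and 6 libraries, and sbp-1 was -0.13 with RLE factors and by DESeq2. Between the strains fat-1 was -0.13 with upper-quartile factors and -0.074 with library totals, mdt-15 was -0.038 and -0.00042 with the same, sbp-1 was 0.034 with RLE factors and by DESeq2 and 0.075 without libraries 7 and 8, and fat-3 was 0.038 without those libraries. Under daf-7 RNAi mdt-15 was -0.010 with upper-quartile factors and -0.0070 with library totals, and sbp-1 was -0.031 and -0.018 with these, -0.0089 without the filter and -0.018 with only the 6 libraries. In the difference fat-1 was 0.13 with upper-quartile factors, 0.17 with library totals and 0.041 without libraries 7 and 8, fat-5 was 0.060 and 0.084 with those factors and totals, and sbp-1 was -0.14 with RLE factors and by DESeq2 and -0.0018 without libraries 7 and 8.

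Leaving out each library gave 45 (without replicate 1 of daf-16(mu86) on vector) to 1375 (without library 8) genes called under bcat-1 RNAi, 30 (without replicate 3 of daf-16(mu86) on vector) to 6110 (without library 8) between the strains, 0 to 1 under daf-7 RNAi and 0 to 88 (without library 7) in the difference. Of the 10 genes 0 to 5 were called between the strains and 0 in the other comparisons. Under bcat-1 RNAi the ranges were -0.17 to 0.092 for fat-1, -0.23 to 0.34 for fat-5 and -0.033 to 0.21 for sbp-1, and between the strains -0.38 to 0.035 for fat-3 and -0.28 to 0.072 for sbp-1. Under daf-7 RNAi they were -0.28 to 0.21 for fat-1, -0.56 to 0.0018 for fat-2, -0.49 to 0.15 for fat-3, -0.26 to 0.0028 for fat-4, -0.44 to 0.72 for fat-5, -0.40 to 0.17 for fat-6, -0.30 to 0.57 for fat-7, -0.16 to 0.26 for sbp-1, -0.35 to 0.28 for nhr-80 and -0.062 to 0.19 for mdt-15. In the difference they were -0.26 to 0.23 for fat-1, -0.71 to 0.45 for fat-5 and -0.19 to 0.22 for sbp-1. Depth limits little here, since every one of the 10 genes had at least 161 counts in each library, and 3 libraries a group limit the precision.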
